A study of Mus musculus with 9 samples.

Results

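The NRF2 antioxidant genes were followed across 9 samples of mouse pancreatic tumor cells. They are 10 genes chosen by name: Nfe2l2, Keap1, Nqo1, Gclc, Gclm, Hmox1, Txnrd1, Srxn1, Gsr and Gpx2. All 10 were found among the 24493 genes of the deposited table. All 10 were also among the 13843 genes tested, which averaged at least 1 TPM (transcripts scaled to 1000000 per library). The samples formed 3 groups of 3, labelled Usp22-KOA, Usp22-KOB and WT by genotype. Every group carried the line name 6419c5 and the strain C57BL/6, and came from late-stage tumors implanted under the skin of mice. The labels do not explain A and B, nor do they give the age of the mice or a step that removed host cells. Each group is thus 1 version of 1 line, and RNA of host cells may be present.

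NRF2, the protein of Nfe2l2, is a transcription factor that switches on genes for antioxidant and detoxifying enzymes. KEAP1 presents it to a CUL3 ubiquitin ligase for destruction, until electrophiles or oxidants modify KEAP1 and NRF2 accumulates, pairs with small MAF proteins and binds antioxidant response elements. NRF2 is controlled largely as a protein, so its mRNA does not measure its activity.

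Usp22, the targeted gene and the ubiquitin protease of the SAGA coactivator (chromosome 11, 61151785 to 61175055 in GRCm38), was checked in every sample. It measured 9.77, 8.46 and 10.1 TPM across Usp22-KOA, 11.8, 14.9 and 14.1 TPM across Usp22-KOB, and 55.1, 54.5 and 56.4 TPM across WT, so the knockouts lay below WT without overlap. The libraries had 13037 to 13940 genes at 1 TPM or more, and TPM keeps no read depth. No label states that samples are from separate mice, so p-values measure spread among these samples that could be technical. Means are given ± SD (n = 3 per group). Differences are on the log2(TPM + 1) scale ± SE, which understates the change of low genes. They were tested with limma, and p-values were adjusted over all tested genes by the Benjamini-Hochberg method. Rose and fell are used where the adjusted p was under 0.05.

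In Usp22-KOA, 6 of the 10 genes rose against WT, 1 fell and 3 did not pass. Across all tested genes, 56.3% were called in that comparison, 29.4% higher and 26.9% lower. In Usp22-KOB, 6 rose, 2 fell and 2 did not pass, where 37.1% of all tested genes were called, 18.7% higher and 18.4% lower. Without WT 3, 5 of the 10 were called in Usp22-KOB. The median difference of the 10 genes from WT was 0.37 for Usp22-KOA and 0.20 for Usp22-KOB, beside 0.019 and -0.0075 over all tested genes. Both comparisons use the same WT samples. In the mean of both knockouts 6 genes rose, 1 fell and 3 did not pass, where 50.0% of all tested genes were called, 25.9% higher and 24.1% lower. Set against each other, the knockouts differed in 9 of the 10 genes, 6 higher and 3 lower in Usp22-KOA, where 51.7% of all tested genes were called, 27.5% higher and 24.2% lower.

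The samples of the groups did not overlap for 8 of the 10 genes between Usp22-KOA and WT, beside 65.3% of all tested genes. The same held for 9 of the 10 between Usp22-KOB and WT, beside 49.1%, and for 9 of the 10 between Usp22-KOA and Usp22-KOB, beside 58.3%. All 6 knockout samples lay on one side of WT for 5 of the 10 genes, beside 29.7% of all tested genes.

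**Figure D1:**
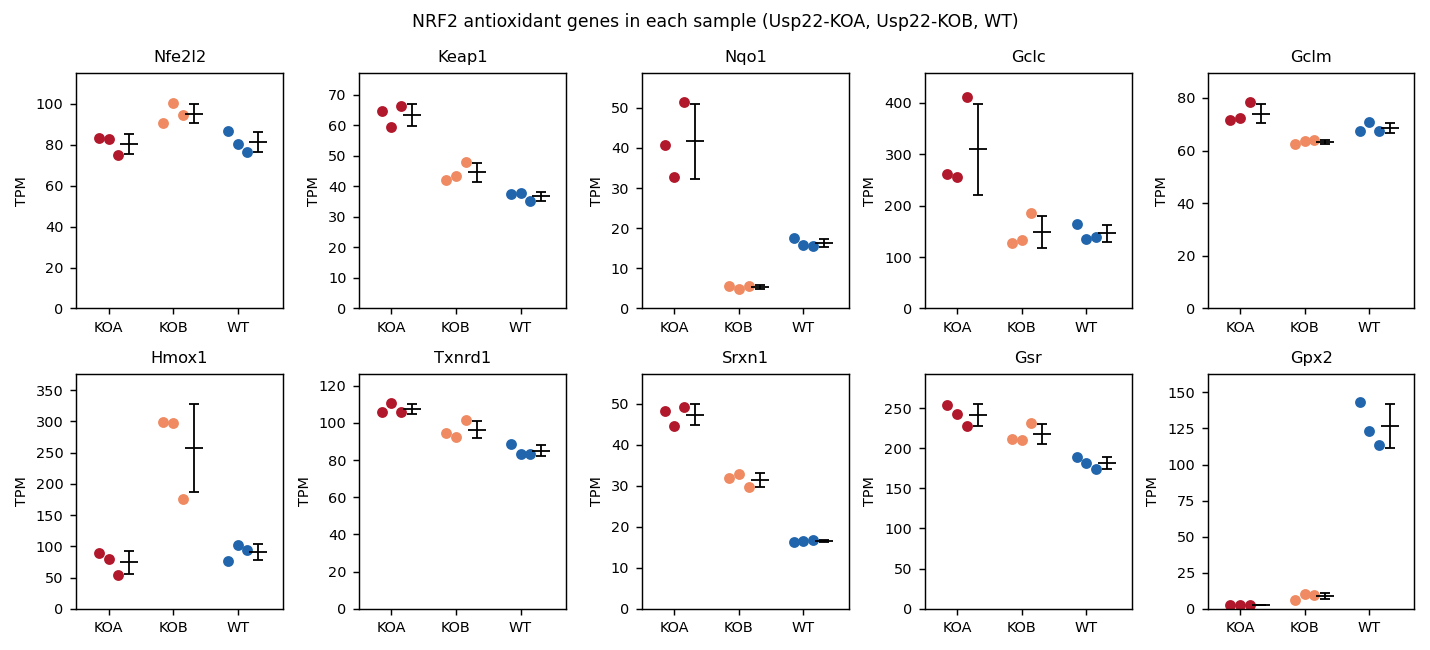
Level of each of the 10 genes in TPM (vertical axes) in the 3 samples of Usp22-KOA, Usp22-KOB and WT, with group means and SD (n = 3). Srxn1 lies higher in all 6 knockout samples and Gpx2 lower, whereas Nqo1 lies above WT in Usp22-KOA and below WT in Usp22-KOB.

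**Figure D2:**
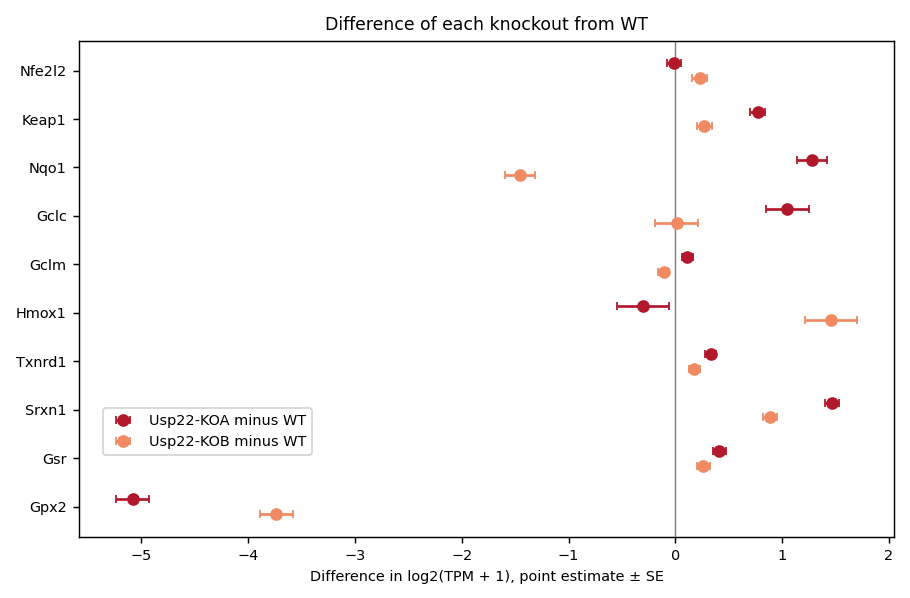
Difference from WT in log2(TPM + 1) for each gene and each knockout, with its SE from limma. Nqo1 stands at 1.28 for Usp22-KOA and at -1.45 for Usp22-KOB, and Gpx2 at -5.08 and -3.73.

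RefSeq promoter windows (GRCm38.p6, the assembly also called mm10) were found for 7 of the 10 genes, and Gclc, Hmox1 and Gsr had none. The 250 bases before each start were searched on both strands for 3 motifs. TGACNNNGC, the core of an antioxidant response element, was present in 10.2% of the 32851 windows of this length. TGAGTCAGC, a variant form of that element that contains an AP-1 site but does not match the core TGACNNNGC, was present in 0.347%. The AP-1 site TGANTCA, which overlaps TGAGTCAGC, was present in 6.75%. Of the 9 windows of these genes, 3 held TGACNNNGC (Nfe2l2, Gclm and 1 of the Txnrd1 windows), and the Srxn1 window held the other motifs. The windows shown are of Srxn1 and Txnrd1, which rose in both knockouts, of Nqo1, which moved in opposite directions, and of Gpx2, which fell in both. They are Srxn1 at chr2:152105274-152105523 (plus strand), Txnrd1 at chr10:82858956-82859205 (plus strand), Nqo1 at chr8:107403206-107403455 (minus strand) and Gpx2 at chr12:76795555-76795804 (minus strand). Each runs 5′ to 3′ on the strand of its gene, and capitals mark motif matches.
Srxn1: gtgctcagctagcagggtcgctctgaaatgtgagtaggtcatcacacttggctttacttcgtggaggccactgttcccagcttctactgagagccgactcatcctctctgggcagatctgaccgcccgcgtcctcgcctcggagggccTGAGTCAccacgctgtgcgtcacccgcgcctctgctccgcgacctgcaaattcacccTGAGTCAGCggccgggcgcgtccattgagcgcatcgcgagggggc
Txnrd1: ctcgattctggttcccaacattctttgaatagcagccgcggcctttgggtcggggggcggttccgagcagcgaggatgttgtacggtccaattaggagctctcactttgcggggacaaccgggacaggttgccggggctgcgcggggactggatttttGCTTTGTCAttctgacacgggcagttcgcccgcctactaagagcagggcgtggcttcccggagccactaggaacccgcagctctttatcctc
Nqo1: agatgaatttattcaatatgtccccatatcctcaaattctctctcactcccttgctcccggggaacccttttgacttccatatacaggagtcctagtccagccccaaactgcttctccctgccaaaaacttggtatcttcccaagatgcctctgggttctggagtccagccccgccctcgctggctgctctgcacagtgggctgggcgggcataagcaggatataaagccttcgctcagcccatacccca
Gpx2: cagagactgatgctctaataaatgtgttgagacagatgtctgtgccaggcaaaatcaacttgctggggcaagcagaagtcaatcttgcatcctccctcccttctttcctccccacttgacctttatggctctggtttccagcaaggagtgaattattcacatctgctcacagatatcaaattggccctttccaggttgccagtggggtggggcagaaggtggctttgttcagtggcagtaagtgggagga
In Srxn1, TGAGTCAGC lay 45 to 37 bases before the start, and another AP-1 match lay 102 to 96 bases before it. In Txnrd1, the match GCTTTGTCA (TGACAAAGC on the other strand) lay 92 to 84 bases before the start. The letters of these motifs are not in the Nqo1 and Gpx2 windows. They are also absent from the other Txnrd1 windows and from the window of Keap1, which rose in both knockouts. Nfe2l2 and Gclm, whose windows held TGACNNNGC, did not rise in both. A link between motif and direction was not tested. A match is a string of letters and not a measured binding site. Only these 250 bases were searched, so a missing match does not show that a gene lacks such an element elsewhere.

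Among the regulators, Nfe2l2 rose in Usp22-KOB and Keap1 rose in both knockouts. Nfe2l2 (chromosome 2, 75675513 to 75704641 in GRCm38, protein coding like the other 9) measured 83.3, 83.0 and 74.8 TPM across Usp22-KOA, 90.9, 100.3 and 94.5 TPM across Usp22-KOB, and 86.55, 80.6 and 76.7 TPM across WT. Usp22-KOA overlapped WT, and Usp22-KOB lay above both. Nfe2l2 differed from WT by -0.016 ± 0.067 in Usp22-KOA (limma adjusted p = 0.855) and by 0.23 ± 0.067 in Usp22-KOB (limma adjusted p = 0.0275). The call in Usp22-KOB ended without WT 2, WT 3 or Usp22-KOB 2 (limma adjusted p = 0.0720, 0.0938 and 0.102). Usp22-KOA minus Usp22-KOB was -0.24 ± 0.067 (limma adjusted p = 0.01465), and this call ended without Usp22-KOA 3 or Usp22-KOB 2 (0.0518 and 0.0596).

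Keap1, the inhibitor of NRF2 (chromosome 9, 21229730 to 21239361), measured 64.7, 59.4 and 66.2 TPM across Usp22-KOA, 42.1, 43.55 and 48.1 TPM across Usp22-KOB, and 37.4, 37.7 and 35.1 TPM across WT. The groups did not overlap, with Usp22-KOA highest and WT lowest. Keap1 rose by 0.77 ± 0.069 in Usp22-KOA (limma adjusted p = 1.7e-05) and by 0.27 ± 0.069 in Usp22-KOB (limma adjusted p = 0.0144). Keap1 was higher in Usp22-KOA than in Usp22-KOB, with a difference of 0.50 ± 0.069 (limma adjusted p = 3.6e-04). Without WT 3 the call in Usp22-KOB ended (limma adjusted p = 0.0528). Within samples, the ratio of Keap1 to Nfe2l2 in TPM was 0.777, 0.716 and 0.885 across Usp22-KOA, 0.463, 0.434 and 0.509 across Usp22-KOB, and 0.432, 0.468 and 0.458 across WT. The Usp22-KOA ratios lay above all others, and those of Usp22-KOB and WT overlapped. Exact two-sided permutation tests returned p = 0.1 for Usp22-KOA against WT, the smallest possible with 3 samples against 3, and 0.6 for Usp22-KOB against WT (0.190 and 0.6 after adjustment over 8 tests of ratios).

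Of 15 listed partners and turnover factors of NRF2, 13 were tested. In Usp22-KOA 5 rose, 4 fell and 4 did not pass, and in Usp22-KOB 2 rose and 11 did not pass, while 2 fell in Usp22-KOB without Usp22-KOA 3 in the fit and 1 fell under 8 other alternatives. Medians were 0.025 in Usp22-KOA and -0.022 in Usp22-KOB. Sqstm1, which encodes p62, an autophagy receptor that binds KEAP1, measured 495, 489.7 and 503 TPM across Usp22-KOA, 388, 410.0 and 413 TPM across Usp22-KOB, and 286, 298 and 296 TPM across WT. All knockout samples lay above WT, and Sqstm1 rose by 0.75 ± 0.041 in Usp22-KOA (limma adjusted p = 9.2e-07) and by 0.46 ± 0.041 in Usp22-KOB (limma adjusted p = 6.7e-05). Bach1, a repressor that competes with NRF2 at its elements, rose by 0.62 ± 0.057 in Usp22-KOA (limma adjusted p = 2.0e-05) and by 0.38 ± 0.057 in Usp22-KOB (limma adjusted p = 0.00106). Cul3, the scaffold of the ligase that KEAP1 serves, measured 24.1, 22.85 and 24.15 TPM across Usp22-KOA, 33.0, 37.2 and 38.8 TPM across Usp22-KOB, and 42.2, 38.7 and 40.6 TPM across WT. It was lowest in Usp22-KOA, while Usp22-KOB and WT overlapped. Cul3 differed from WT by -0.75 ± 0.071 in Usp22-KOA (limma adjusted p = 2.5e-05) and by -0.15 ± 0.071 in Usp22-KOB (limma adjusted p = 0.122), and it passed in Usp22-KOB under quantile normalization (-0.20, limma adjusted p = 0.0244).

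Nqo1, a quinone reductase and a standard readout of NRF2 activity (chromosome 8, 107388225 to 107403206), moved in opposite directions in the knockouts. It measured 40.8, 32.7 and 51.4 TPM across Usp22-KOA, 5.56, 4.84 and 5.54 TPM across Usp22-KOB, and 17.5, 15.8 and 15.6 TPM across WT. Every Usp22-KOA sample lay above WT and every Usp22-KOB sample below it, and the means were 255% and 32.6% of WT. Nqo1 differed from WT by 1.28 ± 0.14 in Usp22-KOA (limma adjusted p = 7.0e-05) and by -1.45 ± 0.14 in Usp22-KOB (limma adjusted p = 1.2e-04). The difference between Usp22-KOA and Usp22-KOB was 2.73 ± 0.14 (limma adjusted p = 1.5e-06). In the mean of both knockouts Nqo1 differed from WT by -0.087 ± 0.12 and did not pass (limma adjusted p = 0.585).

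Of 23 detoxification enzymes and exporters, 22 were tested. In Usp22-KOA 11 rose, 4 fell and 7 did not pass, and in Usp22-KOB 6 rose, 5 fell and 11 did not pass. With array weights, which stopped before convergence, 9 fell in Usp22-KOB. Of all tested genes 7649 passed there with these weights, against 5129 without them. Medians were 0.27 in Usp22-KOA and -0.047 in Usp22-KOB. Akr1c13, an aldo-keto reductase, measured 212, 205.5 and 221 TPM across Usp22-KOA, 109, 110.1 and 117 TPM across Usp22-KOB, and 113, 99.4 and 104 TPM across WT. Usp22-KOA was above both other groups, which overlapped. Akr1c13 differed from WT by 1.01 ± 0.059 in Usp22-KOA (limma adjusted p = 1.4e-06) and by 0.091 ± 0.059 in Usp22-KOB (limma adjusted p = 0.259), so it rose in Usp22-KOA and did not pass in Usp22-KOB. The carbonyl reductase Cbr1 fell in each knockout and differed by -0.57 ± 0.095 in Usp22-KOA (limma adjusted p = 8.4e-04) and by -1.20 ± 0.095 in Usp22-KOB (limma adjusted p = 3.2e-05). Ptgr1, which reduces reactive lipid aldehydes, also fell in each and differed by -1.66 ± 0.10 in Usp22-KOA (limma adjusted p = 1.7e-06) and by -0.51 ± 0.10 in Usp22-KOB (limma adjusted p = 0.00461). Cbr3, a relative of Cbr1, measured 96.6, 91.8 and 101 TPM across Usp22-KOA, 19.4, 22.8 and 17.0 TPM across Usp22-KOB, and 90.5, 76.7 and 80.3 TPM across WT. It was lowest in Usp22-KOB and differed from WT by 0.22 ± 0.10 in Usp22-KOA (limma adjusted p = 0.0956) and by -2.02 ± 0.10 in Usp22-KOB (limma adjusted p = 2.9e-06). In Usp22-KOA Cbr3 passed without Usp22-KOB 2 or 3 in the fit, or with only the groups compared (limma adjusted p = 0.0485, 0.0456 and 0.0346). Aldo-keto reductases and carbonyl reductases have close relatives that can share reads.

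**Figure D3:**
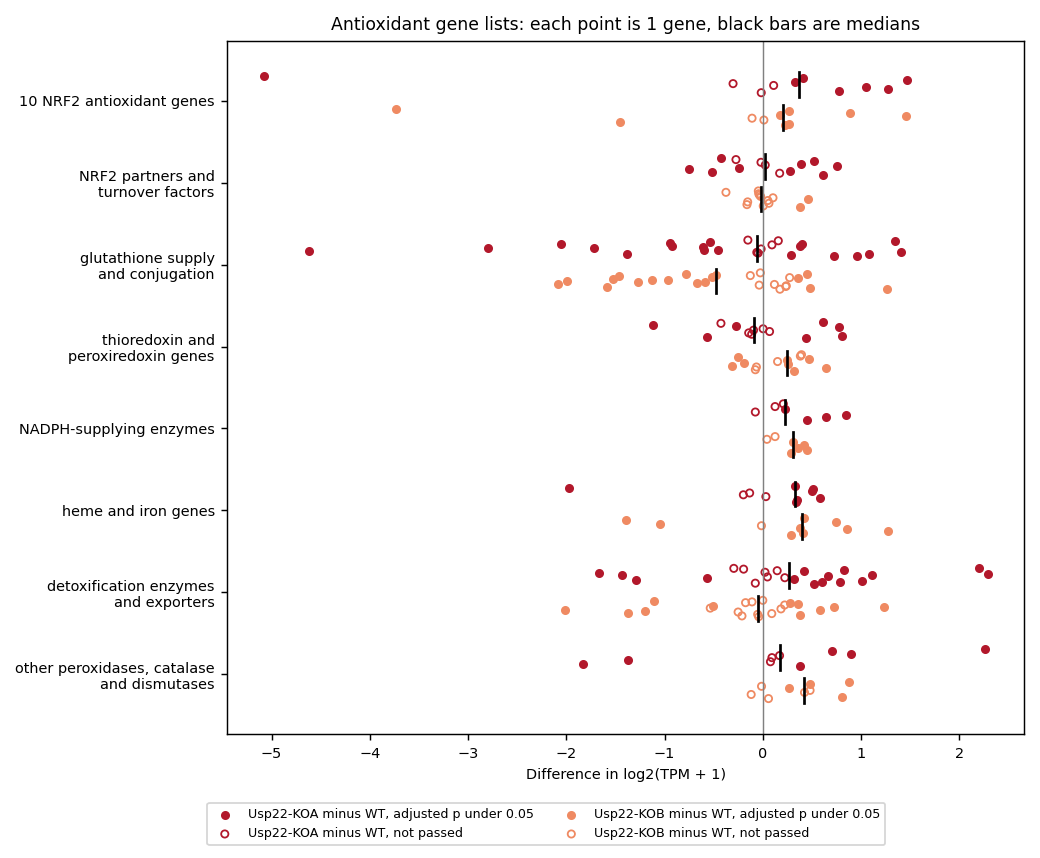
Difference from WT in log2(TPM + 1) of each tested gene of the 10 NRF2 antioxidant genes and of 7 wider lists, for Usp22-KOA and Usp22-KOB, with filled points for limma adjusted p under 0.05 and bars for list medians. The median of glutathione supply and conjugation lies at -0.061 in Usp22-KOA and -0.48 in Usp22-KOB.

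Glutathione synthesis starts with glutamate-cysteine ligase, whose catalytic subunit is Gclc and whose modifier subunit is Gclm. Gclc rose in Usp22-KOA, and Gclm did not pass in either knockout. Gclc (chromosome 9, 77754535 to 77794485) measured 261, 256 and 411.5 TPM across Usp22-KOA, 128, 134 and 185 TPM across Usp22-KOB, and 165, 135 and 138 TPM across WT. Usp22-KOA lay above both other groups, Usp22-KOB overlapped WT, and the highest sample of each knockout was its replicate 3. Gclc differed from WT by 1.05 ± 0.20 in Usp22-KOA (limma adjusted p = 0.00177) and by 0.011 ± 0.20 in Usp22-KOB (limma adjusted p = 0.973). Gclc was higher in Usp22-KOA than in Usp22-KOB, with a difference of 1.04 ± 0.20 (limma adjusted p = 0.00238). In the mean of both knockouts Gclc rose by 0.53 ± 0.17 (limma adjusted p = 0.0309), a call that ended without WT 2 or WT 3 (0.101 and 0.0982) and with the 6 knockout samples as 1 group (0.296).

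Gclm (chromosome 3, 122245557 to 122270732) measured 71.6, 72.25 and 78.25 TPM across Usp22-KOA, 62.5, 63.8 and 63.85 TPM across Usp22-KOB, and 67.3, 70.6 and 67.4 TPM across WT. The groups did not overlap, with Usp22-KOA highest and Usp22-KOB lowest. Gclm differed from WT by 0.11 ± 0.051 in Usp22-KOA (limma adjusted p = 0.0956) and by -0.11 ± 0.051 in Usp22-KOB (limma adjusted p = 0.127), and in Usp22-KOB it passed with array weights (-0.10, 0.0388). Usp22-KOA minus Usp22-KOB was 0.22 ± 0.051 (limma adjusted p = 0.00635), which did not pass under quantile normalization (0.12, 0.06665). The ratio of Gclc to Gclm was 3.65, 3.54 and 5.26 across Usp22-KOA, 2.04, 2.10 and 2.90 across Usp22-KOB, and 2.45, 1.91 and 2.05 across WT. The Usp22-KOA ratios were the highest. For Usp22-KOA against WT the exact two-sided permutation p was 0.1, and for Usp22-KOB against WT it was 0.6 (0.190 and 0.6 after adjustment over 8 tests).

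Markers of mast cells were also higher in Usp22-KOA, where Nqo1 and Gclc rose. All 7 of these markers rose there, and in Usp22-KOB 4 rose, 1 fell and 2 did not pass. Their summed level spanned 1190 to 2467 TPM in Usp22-KOA, 93.5 to 123 TPM in Usp22-KOB, and 149 to 182 TPM in WT, and none of them was at 0 in any sample. Mcpt4 set the WT sum, with a mean of 160 TPM beside 166 TPM for the whole sum. Mcpt4 was also the marker that fell in Usp22-KOB, so the lower sum there does not describe the other markers. The third sample of Usp22-KOA had the lowest mast cell sum and the highest Nqo1 and Gclc of its group, and the part of mast cell RNA was not tested. Other host markers moved in Usp22-KOA too. Of 8 tested T and NK cell markers, 6 rose and 2 did not pass, with sums of 37.6 to 83.2 TPM in Usp22-KOA and 9.43 to 17.4 TPM in WT, and Ncr1 was at 0 in at least 1 of the 9 samples. The rise of T and NK cell markers was shared, as 5 rose and 3 did not pass in Usp22-KOB (sums of 22.4 to 66.85 TPM). None of the 8 passed between the knockouts. Of 8 fibroblast markers, 6 fell in Usp22-KOA and 2 did not pass, with sums of 188 to 221 TPM there and 504.5 to 924 TPM in WT. All 7 tested endothelial markers fell in Usp22-KOA, with sums of 4.71 to 10.8 TPM there and 32.75 to 45.75 TPM in WT. The part of these cell types was not tested. In bulk samples, fewer cells of a type and less RNA per cell cannot be told apart.

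Gsr, glutathione reductase, which regenerates glutathione with NADPH (chromosome 8, 33652523 to 33698163), measured 254, 243 and 227 TPM across Usp22-KOA, 211, 210.3 and 232 TPM across Usp22-KOB, and 189, 181 and 174 TPM across WT. All 6 knockout samples lay above WT, and the knockouts overlapped. Gsr rose by 0.41 ± 0.060 in Usp22-KOA (limma adjusted p = 3.7e-04) and by 0.26 ± 0.060 in Usp22-KOB (limma adjusted p = 0.009055). Usp22-KOA minus Usp22-KOB was 0.15 ± 0.060 and did not pass (limma adjusted p = 0.0680). It passed without Usp22-KOA 3 or Usp22-KOB 3, with median-of-ratios scaling or with array weights (0.0377, 0.0233, 0.04795 and 0.00204).

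Gpx2, a selenium-dependent glutathione peroxidase of gastrointestinal epithelium (chromosome 12, 76792333 to 76795554), had the largest differences from WT among the 10 genes, in each knockout. It measured 2.69, 2.62 and 2.95 TPM across Usp22-KOA, 6.42, 10.2 and 9.46 TPM across Usp22-KOB, and 143, 123 and 113.5 TPM across WT. No groups overlapped, and the means were 2.18% of WT for Usp22-KOA and 6.86% for Usp22-KOB. Gpx2 fell in both and differed by -5.08 ± 0.15 in Usp22-KOA (limma adjusted p = 4.7e-08) and by -3.73 ± 0.15 in Usp22-KOB (limma adjusted p = 1.0e-06). Usp22-KOA minus Usp22-KOB was -1.35 ± 0.15 (limma adjusted p = 1.2e-04), or -0.81 with a pseudocount of 5.

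Some epithelial markers fell where Gpx2 fell, and others did not. Of 10 such markers, 9 were tested. In Usp22-KOA 1 rose, 7 fell and 1 did not pass, and in Usp22-KOB 5 fell and 4 did not pass. Their summed level spanned 6258 to 7038 TPM in Usp22-KOA, 6833 to 8354 TPM in Usp22-KOB, and 7908 to 8412 TPM in WT, so Usp22-KOB overlapped WT. The keratins Krt8, Krt18 and Krt19 made up most of this sum, with means of 2495, 1771 and 2065 TPM of 8164 TPM in WT. Cldn4, Cldn7 and Ocln fell in both knockouts, with means of 2.55%, 12.5% and 4.31% of WT in Usp22-KOA. In Usp22-KOB these means were 18.2%, 17.55% and 16.7% of WT. Krt19 rose in Usp22-KOA, and Krt8, Krt18, Krt19 and Cdh1 did not pass in Usp22-KOB. Krt8, a keratin of simple epithelia, measured 2611, 2355 and 2455 TPM across Usp22-KOA, 2425, 2477 and 3001 TPM across Usp22-KOB, and 2585, 2379 and 2520 TPM across WT, and the groups overlapped. Epcam, an epithelial adhesion molecule, measured 33.9, 24.7 and 54.4 TPM across Usp22-KOA, 25.45, 32.6 and 35.8 TPM across Usp22-KOB, and 399.6, 373 and 364 TPM across WT, and all knockout samples were below WT. Esrp1, an epithelial splicing regulator and the marker below the test's minimum, averaged 0.049 TPM in Usp22-KOA, 0.072 TPM in Usp22-KOB and 1.56 TPM in WT. All knockout samples of Esrp1 lay below WT, and it was listed at 0 in Usp22-KOB 2. The part of these markers in the Gpx2 result was not tested.

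Of 27 genes of glutathione supply and conjugation, 25 were tested. In Usp22-KOA 8 rose, 11 fell and 6 did not pass, and in Usp22-KOB 4 rose, 13 fell and 8 did not pass. Where a mean of 5 TPM was required, 6 fell in Usp22-KOA. The others that fell there average under 5 TPM and were left out by that filter. Slc7a11, the cystine importer, measured 9.85, 12.4 and 12.45 TPM across Usp22-KOA, 16.85, 17.55 and 17.0 TPM across Usp22-KOB, and 7.30, 6.42 and 5.98 TPM across WT. The groups did not overlap, with Usp22-KOB highest, and Slc7a11 rose by 0.73 ± 0.11 in Usp22-KOA (limma adjusted p = 3.4e-04) and by 1.27 ± 0.11 in Usp22-KOB (limma adjusted p = 4.5e-05). Gss, glutathione synthetase, differed by 0.95 ± 0.097 in Usp22-KOA (limma adjusted p = 3.9e-05) and by 0.17 ± 0.097 in Usp22-KOB (limma adjusted p = 0.1935), so it rose in Usp22-KOA and did not pass in Usp22-KOB.

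Of the 20 glutathione S-transferases in that list, 18 were tested, and more of them fell than rose. In Usp22-KOA 4 rose, 10 fell and 4 did not pass, and in Usp22-KOB 2 rose, 12 fell and 4 did not pass. Gsta3 measured 1.98, 1.84 and 3.21 TPM across Usp22-KOA, 16.05, 16.8 and 21.7 TPM across Usp22-KOB, and 75.7, 95.3 and 70.4 TPM across WT. It fell in both knockouts without overlap and differed by -4.62 ± 0.18 in Usp22-KOA (limma adjusted p = 1.8e-07) and by -2.09 ± 0.18 in Usp22-KOB (limma adjusted p = 5.3e-05). Gsta1 measured 133, 120.5 and 234 TPM across Usp22-KOA, 57.6, 61.1 and 70.7 TPM across Usp22-KOB, and 65.8, 53.3 and 55.3 TPM across WT. It was highest in Usp22-KOA, and it differed from WT by 1.41 ± 0.22 in Usp22-KOA (limma adjusted p = 5.3e-04) and by 0.12 ± 0.22 in Usp22-KOB (limma adjusted p = 0.706). Gstm3 measured 0.460, 0 and 0 TPM across Usp22-KOA, 0.955, 0.988 and 0.972 TPM across Usp22-KOB, and 7.46, 8.01 and 5.37 TPM across WT, so it was low or listed at 0 in the knockouts. These transferases have close relatives that can share reads, and their values are less certain.

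In the thioredoxin branch, Txnrd1 and Srxn1 rose in both knockouts. Txnrd1, cytosolic thioredoxin reductase (chromosome 10, 82833951 to 82897712), measured 106, 110.5 and 106 TPM across Usp22-KOA, 94.85, 92.65 and 101.5 TPM across Usp22-KOB, and 88.5, 83.5 and 83.6 TPM across WT. The groups did not overlap, with Usp22-KOA highest. Txnrd1 rose by 0.33 ± 0.052 in Usp22-KOA (limma adjusted p = 5.3e-04) and by 0.18 ± 0.052 in Usp22-KOB (limma adjusted p = 0.0268). The call in Usp22-KOB ended without WT 2, WT 3, Usp22-KOB 1 or Usp22-KOB 3 (limma adjusted p = 0.0820, 0.0809, 0.0502 and 0.0506), without a trend (0.0547) and with only the groups compared (0.0567). Usp22-KOA minus Usp22-KOB was 0.16 ± 0.052 (limma adjusted p = 0.0306). That call ended without any 1 of the Usp22-KOA samples (up to 0.0998), without Usp22-KOB 1 or 2 (0.0798 and 0.113), without a trend (0.0611), with only the groups compared (0.0590) and under quantile normalization (0.040, 0.485).

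Srxn1, sulfiredoxin, which restores over-oxidised peroxiredoxins (chromosome 2, 152105516 to 152111376), measured 48.4, 44.5 and 49.3 TPM across Usp22-KOA, 31.9, 32.8 and 29.6 TPM across Usp22-KOB, and 16.4, 16.5 and 16.7 TPM across WT. The groups did not overlap, and the means were 287% of WT for Usp22-KOA and 190.2% for Usp22-KOB. Srxn1 rose by 1.46 ± 0.063 in Usp22-KOA (limma adjusted p = 2.8e-07) and by 0.89 ± 0.063 in Usp22-KOB (limma adjusted p = 1.9e-05). Srxn1 was higher in Usp22-KOA than in Usp22-KOB, with a difference of 0.58 ± 0.063 (limma adjusted p = 9.7e-05). These calls held in each of the 20 alternatives run. Srxn1 is the gene whose window, printed above, holds TGAGTCAGC.

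The list of 13 other thioredoxin and peroxiredoxin genes was mixed. In Usp22-KOA 4 rose, 3 fell and 6 did not pass, and in Usp22-KOB 5 rose, 3 fell and 5 did not pass. The number that fell in Usp22-KOA was 5 under quantile normalization and without Mir6236, and 6 with array weights, which also gave 5 that fell in Usp22-KOB. Txn1, thioredoxin, measured 494, 484 and 469 TPM across Usp22-KOA, 446, 434 and 453 TPM across Usp22-KOB, and 363, 358 and 344 TPM across WT. All knockout samples lay above WT, and Txn1 rose by 0.44 ± 0.041 in Usp22-KOA (limma adjusted p = 2.3e-05) and by 0.32 ± 0.041 in Usp22-KOB (limma adjusted p = 4.9e-04). Txnrd2, mitochondrial thioredoxin reductase, rose by 0.81 ± 0.075 in Usp22-KOA (limma adjusted p = 2.1e-05) and by 0.65 ± 0.075 in Usp22-KOB (limma adjusted p = 2.8e-04). Prdx6, a peroxiredoxin that acts on phospholipids, measured 68.6, 71.9 and 68.5 TPM across Usp22-KOA, 122, 127 and 135 TPM across Usp22-KOB, and 153, 152 and 152 TPM across WT. It fell in both, furthest in Usp22-KOA, and differed by -1.12 ± 0.049 in Usp22-KOA (limma adjusted p = 3.1e-07) and by -0.25 ± 0.049 in Usp22-KOB (limma adjusted p = 0.00423).

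All 7 listed genes tied to the supply of NADPH, the electron donor of both reductases, were tested. In Usp22-KOA 4 rose and 3 did not pass, and in Usp22-KOB 5 rose and 2 did not pass. Pgls, Taldo1 and Tkt are pentose phosphate enzymes that do not make NADPH themselves, so these counts do not measure its production. Me1 and Idh1, which do make it, did not pass in either knockout. Pgd, of the pentose phosphate pathway, measured 274, 242 and 265 TPM across Usp22-KOA, 225.5, 227 and 230.5 TPM across Usp22-KOB, and 162, 178 and 158 TPM across WT. All knockout samples lay above WT, and Pgd rose by 0.65 ± 0.061 in Usp22-KOA (limma adjusted p = 2.4e-05) and by 0.45 ± 0.061 in Usp22-KOB (limma adjusted p = 6.1e-04). Pgls, the enzyme before it, rose by 0.84 ± 0.067 in Usp22-KOA (limma adjusted p = 8.3e-06) and by 0.36 ± 0.067 in Usp22-KOB (limma adjusted p = 0.00328). G6pdx, the first enzyme of the pathway, rose by 0.45 ± 0.068 in Usp22-KOA (limma adjusted p = 4.3e-04) and by 0.28 ± 0.068 in Usp22-KOB (limma adjusted p = 0.0114).

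Hmox1, heme oxygenase, which degrades heme and is repressed by BACH1 (chromosome 8, 75093621 to 75100589), rose in Usp22-KOB. It measured 89.75, 80.2 and 53.8 TPM across Usp22-KOA, 299, 297 and 176 TPM across Usp22-KOB, and 76.3, 103 and 93.5 TPM across WT. Usp22-KOB lay above both other groups, Usp22-KOA overlapped WT, and the lowest sample of each knockout was its replicate 3. Hmox1 differed from WT by -0.30 ± 0.24 in Usp22-KOA (limma adjusted p = 0.316) and by 1.46 ± 0.24 in Usp22-KOB (limma adjusted p = 0.00190). Between the knockouts, Usp22-KOA minus Usp22-KOB, it differed by -1.76 ± 0.24 (limma adjusted p = 3.6e-04). In the mean of both knockouts Hmox1 rose by 0.58 ± 0.21 (limma adjusted p = 0.0463). That call ended without WT 1, 2 or 3 (0.170, 0.0612 and 0.0970), Usp22-KOA 1 or 2 (0.0853 and 0.0845) or Usp22-KOB 1 or 2 (0.0868 and 0.0878). It also ended with the 6 knockout samples as 1 group (0.473), without a filter (0.0705), without a trend (0.06135), and under quantile normalization, median-of-ratios scaling or rescaling without Mir6236 (0.0723, 0.0660 and 0.0519).

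Macrophages express Hmox1, and their markers moved with it. Of 13 macrophage markers in Usp22-KOA 1 rose, 2 fell and 10 did not pass, and in Usp22-KOB 12 rose and 1 fell. Their summed level was 3467, 2955 and 1599 TPM across Usp22-KOA, 9819, 9635 and 5631 TPM across Usp22-KOB, and 2154, 3275 and 2263 TPM across WT, and none was at 0 in any sample. In each group the sample with the highest sum also had the highest Hmox1, and in each group the sample with the lowest sum had the lowest Hmox1. Markers of other host cells also moved in Usp22-KOB, where 37.1% of all tested genes were called. Of 10 pan-leukocyte markers 8 rose there and 2 did not pass, and of 8 fibroblast markers 3 rose and 5 did not pass. Of 7 tested endothelial markers 1 fell and 6 did not pass. The part of macrophage RNA, or of RNA of these other cells, in the Hmox1 result was not tested.

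**Figure D4:**
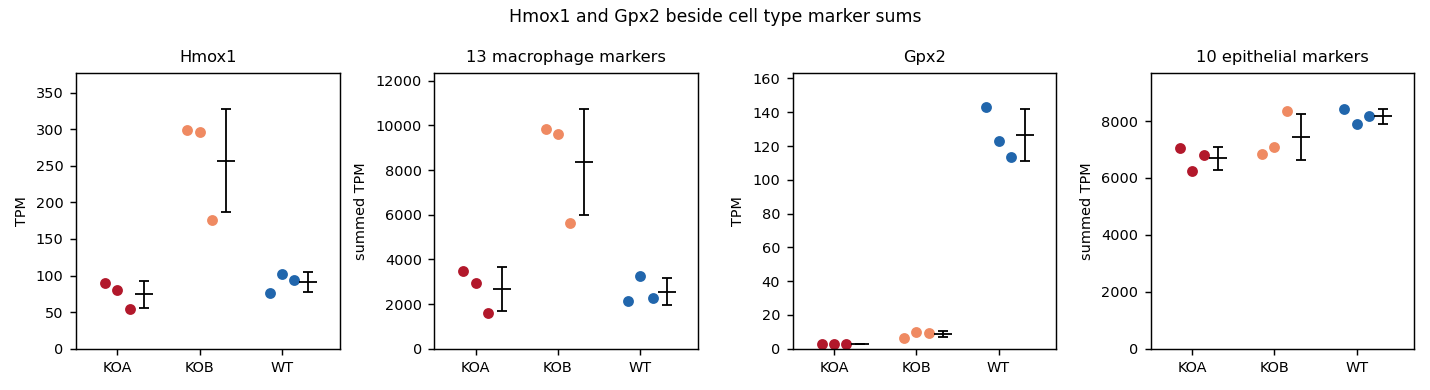
Levels of Hmox1 and Gpx2 beside summed levels of macrophage and epithelial markers in each sample, in TPM, with group means and SD (n = 3). Hmox1 and the macrophage sum are highest in Usp22-KOB, whereas Gpx2 is highest in WT. Krt8, Krt18 and Krt19 make up most of the epithelial sum.

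Of 10 other heme and iron genes in Usp22-KOA 6 rose, 1 fell and 3 did not pass, and in Usp22-KOB 7 rose, 2 fell and 1 did not pass. In Usp22-KOA 2 fell without Usp22-KOA 3, under quantile normalization, median-of-ratios scaling or rescaling without Mir6236, and with array weights. Hpx, the 1 gene of the list that fell in Usp22-KOA, averages under 5 TPM, and with a mean of 5 TPM required 1 fell in Usp22-KOB. Blvrb, biliverdin reductase B, measured 149.9, 135.5 and 128 TPM across Usp22-KOA, 230.1, 213 and 227 TPM across Usp22-KOB, and 85.6, 100.3 and 89.1 TPM across WT. The groups did not overlap, with Usp22-KOB highest, and Blvrb rose by 0.58 ± 0.077 in Usp22-KOA (limma adjusted p = 1.9e-04) and by 1.28 ± 0.077 in Usp22-KOB (limma adjusted p = 7.0e-06). Slc48a1, a heme transporter, rose by 0.51 ± 0.076 in Usp22-KOA (limma adjusted p = 3.9e-04) and by 0.75 ± 0.076 in Usp22-KOB (limma adjusted p = 1.4e-04). Hpx, hemopexin, which carries heme in plasma, fell in both and differed by -1.97 ± 0.14 in Usp22-KOA (limma adjusted p = 4.0e-06) and by -1.40 ± 0.14 in Usp22-KOB (limma adjusted p = 1.1e-04). Fth1, the ferritin heavy chain, measured 2458, 2279 and 2020 TPM across Usp22-KOA, 4345, 4445 and 3240 TPM across Usp22-KOB, and 2147, 2218 and 2227 TPM across WT. It rose in Usp22-KOB, where the macrophage markers were high, and the part of macrophage RNA in the Fth1 result was not tested. Fth1 differed by 0.031 ± 0.12 in Usp22-KOA (limma adjusted p = 0.837) and by 0.85 ± 0.12 in Usp22-KOB (limma adjusted p = 7.4e-04). Fth1 has processed copies that can share its reads.

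Of 9 other peroxidases, catalase and superoxide dismutases in Usp22-KOA 4 rose, 2 fell and 3 did not pass, and in Usp22-KOB 4 rose and 5 did not pass. With a mean of 5 TPM required, 1 fell in Usp22-KOA, as the other that fell there averages under 5 TPM. In Usp22-KOB 1 fell under quantile normalization or with array weights. Sod2, of mitochondria, measured 31.3, 29.6 and 31.7 TPM across Usp22-KOA, 25.2, 27.8 and 25.6 TPM across Usp22-KOB, and 17.8, 19.2 and 18.5 TPM across WT. All knockout samples lay above WT, and Sod2 rose by 0.71 ± 0.064 in Usp22-KOA (limma adjusted p = 1.8e-05) and by 0.48 ± 0.064 in Usp22-KOB (limma adjusted p = 6.1e-04). Sod3, the extracellular form, rose by 2.26 ± 0.19 in Usp22-KOA (limma adjusted p = 1.2e-05) and by 0.88 ± 0.19 in Usp22-KOB (limma adjusted p = 0.00668). Sod1, the cytosolic form, measured 2256, 2208 and 2710 TPM across Usp22-KOA, 1201, 1236 and 1355 TPM across Usp22-KOB, and 1297, 1271 and 1253 TPM across WT. It was high in Usp22-KOA, where it rose, and overlapped WT in Usp22-KOB. Sod1 differed by 0.90 ± 0.080 in Usp22-KOA (limma adjusted p = 1.6e-05) and by -0.013 ± 0.080 in Usp22-KOB (limma adjusted p = 0.917).

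By mean level per length, Gclc (309.6 ± 88.3 TPM) and Gsr (241 ± 13.5 TPM) led in Usp22-KOA, and Hmox1 (257 ± 70.4 TPM) and Gsr (218 ± 12.2 TPM) in Usp22-KOB. In each knockout the gap between the leading genes was within the SD of the first. In WT Gsr (181 ± 7.21 TPM) led, followed by Gclc (146 ± 16.5 TPM) and Gpx2 (127 ± 15.2 TPM), whose samples overlapped. The lowest gene was Gpx2 in Usp22-KOA (2.755 ± 0.1695 TPM) and Nqo1 in Usp22-KOB (5.31 ± 0.409 TPM). In WT the lowest were Srxn1 (16.5 ± 0.140 TPM) and Nqo1 (16.3 ± 1.02 TPM), which overlapped.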

How the data were processed

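Polyadenylated RNA of 9 samples was measured. The authors deposited 1 table of TPM with 1 column a sample. Salmon, DESeq2 and mm10 appear in the submitters' processing notes, and the sources used here give neither their roles and versions nor the annotation. These deposited TPM values were turned into log2(TPM + 1). The 13843 genes averaging 1 TPM or more entered 1 limma fit of all samples (lmFit, contrasts.fit, eBayes with trend), and 10650 were set aside. TPM keeps no depth, so no counting interval is given. The fit was tested on simulated data. Coordinates are from GENCODE M21 (GRCm38), matched by symbol. The members and lists were chosen with earlier results of these data known. Of each wider list, the 3 genes with the smallest adjusted p in the mean of both knockouts are named. Gss, Gsta1, Cbr3, Fth1, Krt8, Krt18, Krt19, Cdh1, Epcam, Esrp1 and Ncr1 were named after their values were seen. So were Mcpt4, Krt7, Cldn4, Cldn7, Ocln, Me1, Idh1, Taldo1 and Tkt. For each member the 2 genes of most similar pattern, among those averaging at least 5 TPM, are named, except 1 that is not reported here. Alternatives were other pseudocounts, filters, scalings and limma settings, a replicate block, other sample sets and each sample left out. Software comprised limma 3.58.1 in R 4.3.3, and scipy 1.17.1, matplotlib 3.10.9, numpy 2.4.6 and pandas 2.3.3 in Python 3.11.15.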

Additional observations from a re-analysis of the deposited data

Results flagged for a closer look

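For 9 of the 10 genes the knockouts differed from each other by limma's test (Benjamini-Hochberg adjusted p under 0.05), as did 51.7% of all tested genes. On the log2 scale Usp22-KOA minus Usp22-KOB was 2.73 for Nqo1, 1.04 for Gclc, 0.58 for Srxn1, 0.50 for Keap1, 0.22 for Gclm and 0.16 for Txnrd1. It was -1.76 for Hmox1, -1.35 for Gpx2 and -0.24 for Nfe2l2. Nqo1 is the gene among the 10 that passed against WT in both knockouts with opposite signs. Summed macrophage markers also differed, at 1599 to 3467 TPM in Usp22-KOA, 5631 to 9819 TPM in Usp22-KOB, and 2154 to 3275 TPM in WT, and 11 of the 13 passed as lower in Usp22-KOA. All 7 mast cell markers were higher in Usp22-KOA than in Usp22-KOB (sums of 1190 to 2467 TPM in Usp22-KOA, 93.5 to 123 TPM in Usp22-KOB), as were 5 of 6 neutrophil markers (599 to 1532 TPM in Usp22-KOA, 152 to 512 TPM in Usp22-KOB). All 8 fibroblast markers were lower in Usp22-KOA (188 to 221 TPM in Usp22-KOA, 798 to 1228 TPM in Usp22-KOB), as were all 7 tested endothelial markers (4.71 to 10.8 TPM in Usp22-KOA, 25.35 to 37.9 TPM in Usp22-KOB). The part of these cell types in the differences was not tested.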

How the results depend on the processing

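Of 800 recomputed differences of the 10 genes, 739 kept their direction and side of the threshold, 39 lost a call, 6 gained one and 16 changed sign. Of 560 list counts, 25 moved by over 1.5 times. The sign changes were of differences that had not passed, and the cause was not tested. In the mean of both knockouts Nqo1 was 0.033 with a pseudocount of 5, and Gclm was -0.050 under quantile normalization, -0.016 without Mir6236, -0.0082 with array weights and -0.019 to 0.023 with 1 sample left out. In Usp22-KOA Nfe2l2 was 2.7e-05 with array weights and -0.056 to 0.034 with 1 sample left out, and Fth1 was -0.034 to 0.11. In Usp22-KOB Gclc was -0.12 with array weights and -0.16 to 0.11 with 1 sample left out, and Sod1 was 0.0013 under median-of-ratios scaling and -0.064 to 0.023 with 1 sample left out. Array weights stopped before convergence, and with them 8545 genes passed in Usp22-KOA, against 7793, and 7649 in Usp22-KOB, against 5129. With the 6 knockout samples as 1 group, 2946 genes passed, against 6920. With 1 sample left out, 5555 to 7401 genes passed in the mean of both knockouts, 6946 to 8224 in Usp22-KOA, 3725 to 5615 in Usp22-KOB and 5912 to 7393 between the knockouts. Of the 10 genes, 5 to 7, 7, 5 to 8 and 7 to 10 passed in the same order of comparisons. Same-numbered samples correlated in their deviations at -0.125 to 0.276, with 2 of 9 pairs over 0.1 and 5 of 9 samples closest to their own number. Between the knockouts the values were 0.187, 0.077 and 0.276 for numbers 1, 2 and 3, and between a knockout and WT they were -0.125 to 0.077. The main fit did not take the numbers as a pairing, and these values cannot tell whether samples were paired. With the replicate block, 6702 genes passed in the mean of both knockouts, 7588 in Usp22-KOA, 4835 in Usp22-KOB and 6922 between the knockouts, and of the 10 genes 7, 7, 7 and 8. The block ended the calls of Txnrd1 in Usp22-KOB and between the knockouts (limma adjusted p = 0.0621 and 0.06775). TPM keeps no depth, so a limit set by depth cannot be given.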

Other observations

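Genes were ranked by likeness to each of the 10, as the root mean square difference of log2(TPM + 1) minus the WT mean over the 9 samples. Nearest to Nqo1 were Itih4 (0.18) and Abca8b (0.23), nearest to Hmox1 Steap3 (0.11) and Adap2 (0.15), and nearest to Gpx2 Pgc (0.24) and Kcne3 (0.29). For Srxn1 they were Klf4 (0.076) and Dhrs7 (0.093), for Gclc Acnat1 (0.11) and Plekha8 (0.13), for Keap1 Lgals3bp (0.042) and Prep (0.045) and for Nfe2l2 Atp6v1c1 (0.052) and Nasp (0.052). For Gclm they were Babam1 (0.031) and Zbtb22 (0.035), and for Gsr St3gal1 (0.041) and Psmc3 (0.042). Near Txnrd1 was Phf23 (0.024). Steap3 encodes a metalloreductase, Pgc the precursor of a gastric protease, and Klf4 a transcription factor of epithelia. Within the 10 genes the closest pair was Txnrd1 and Gsr (0.080), and the widest was Srxn1 and Gpx2 (4.63).

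Replicate 3 of each knockout had the highest Gclc and the lowest Hmox1 of its group. Its summed pan-leukocyte markers were also the lowest of the group, at 672 TPM for Usp22-KOA 3, and 1165 TPM for Usp22-KOB 3. WT 3 had the lowest such sum of its group too, at 523 TPM. In WT, however, WT 1 had the highest Gclc (165 TPM) and the lowest Hmox1 (76.3 TPM). A link between these levels was not tested.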
